A study of Mus musculus with 17 samples.

Results

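The right ventricle of the newborn mouse was followed from the day of birth to the end of the first week of life. The comparison set the 2 right ventricle (RV) libraries of postnatal day 7 (P7) against the 3 of postnatal day 0 (P0), and these 5 libraries are part of a series of 17. All groups were male C57Bl/6 mice with no treatment. The P0 group was taken before closure of the ductus arteriosus and the P7 group at an age when most heart muscle cells have differentiated terminally, per the labels. Total RNA was sequenced as strand-specific, paired-end libraries of biological replicates. The remaining groups were the RV at P3 (3 libraries) and the left ventricle (LV) at P0, P3 and P7 (3 libraries each). The labels do not say whether a library came from 1 animal or from pooled hearts. The measured features were 23940 rows of long noncoding transcripts, each with an identifier and, for all but 702, a genome position.

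Before birth the right ventricle pumps against the systemic circulation through the ductus arteriosus, and after birth it serves the low-pressure lung circulation alone. In the same days heart muscle cells of the mouse leave the cell cycle, exchange the slow fetal myosin heavy chain (Myh7) for the fast adult one (Myh6), and turn from glucose to fatty acids as fuel. Long noncoding RNAs are transcripts without a long open reading frame. Many lie antisense to, inside or beside coding genes, and some serve as the precursors of microRNAs.

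The positions in the files are those of the older mouse assembly mm9, and they are printed here as deposited. Rows were tied to genes without converting any coordinate. A row was matched when its span in bases equalled that of a GENCODE M21 transcript on the same chromosome and a second matched row within 1 Mb lay at the same distance in the files and in the annotation. Of 20307 distinct positions, 3705 were matched and 12598 were placed between matched rows whose separation was the same in both. The other 4004 positions were not placed. With 1 base added to every annotated span the same procedure matched 0 positions, and with 1 base taken away it matched 25. A row was called near a gene when it lay within 10 kb of it. A row inside a coding gene can hold reads of that gene, because the sources used here do not say whether the counting used the strand.

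Several rows that changed cover the hairpins of known microRNAs. Mature sequences from RefSeq (GRCm38.p6) are given with the seed, bases 2 to 8, in capitals. They show which small RNAs the changed transcripts could carry, but the files hold the long transcripts and not the mature microRNAs. The exception is miR-208b, whose hairpin the changed rows lie near but do not overlap. The row at Mir142hg rose, the rows at H19, Mir670hg, C430049B03Rik and Ska2 fell, and of the 3 rows near Mir208b in the Myh7 gene 2 fell and 1 rose.
miR-142a-5p: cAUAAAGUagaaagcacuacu
miR-142a-3p: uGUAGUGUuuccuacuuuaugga
miR-675-5p (H19): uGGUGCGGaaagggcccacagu
miR-675-3p (H19): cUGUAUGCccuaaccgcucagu
miR-670-5p: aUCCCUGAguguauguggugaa
miR-322-5p (C430049B03Rik): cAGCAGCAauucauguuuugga
miR-503-5p (C430049B03Rik): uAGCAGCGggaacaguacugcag
miR-301a-3p (Ska2): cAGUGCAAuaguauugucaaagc
miR-208b-3p (Myh7): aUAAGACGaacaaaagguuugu
No 2 of these seeds were identical.

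The 250 bases upstream of the annotated start are shown for the genes at the 2 rows that fell most and for the antisense gene at a row that rose among the most, because the rows give transcript levels at these loci. Sequences are from RefSeq (GRCm38.p6), 5′ to 3′ on the strand of the gene, with motif matches on either strand in capitals. The motifs searched were AGATAA, a site of the GATA factors of the heart, and CATTCC, a core found upstream of many muscle genes. TATAAA, the site of basal transcription factors, was searched too, as was the CArG box by its usual consensus. The MEF2 site was searched in a loose form, with any base allowed between its fixed outer bases.
Bmp10, chr6:87428744-87428993, plus strand: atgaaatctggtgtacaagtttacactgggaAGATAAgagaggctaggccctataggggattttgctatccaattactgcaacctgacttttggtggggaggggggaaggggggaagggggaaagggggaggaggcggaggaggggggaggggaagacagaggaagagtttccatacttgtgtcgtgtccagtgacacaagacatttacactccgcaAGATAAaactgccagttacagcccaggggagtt
Myh7 (the first of its 2 entries), chr14:54994627-54994876, minus strand: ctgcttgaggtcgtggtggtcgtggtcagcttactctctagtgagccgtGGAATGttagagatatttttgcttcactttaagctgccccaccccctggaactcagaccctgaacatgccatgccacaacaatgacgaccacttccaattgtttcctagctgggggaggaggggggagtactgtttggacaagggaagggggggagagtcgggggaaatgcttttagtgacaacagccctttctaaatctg
Mhrt, chr14:54968537-54968786, plus strand: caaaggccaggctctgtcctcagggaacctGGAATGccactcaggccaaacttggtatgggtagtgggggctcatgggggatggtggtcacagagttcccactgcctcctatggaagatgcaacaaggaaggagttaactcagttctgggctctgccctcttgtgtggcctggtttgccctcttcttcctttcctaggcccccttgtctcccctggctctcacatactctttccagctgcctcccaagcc
Foxo6os, chr4:120290883-120291132, plus strand: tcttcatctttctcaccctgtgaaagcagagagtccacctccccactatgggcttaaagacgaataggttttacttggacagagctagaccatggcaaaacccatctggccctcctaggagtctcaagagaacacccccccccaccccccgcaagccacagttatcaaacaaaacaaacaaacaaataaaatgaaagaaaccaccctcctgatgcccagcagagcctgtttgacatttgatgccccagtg
The Bmp10 window held 2 matches to AGATAA and the Myh7 and Mhrt windows 1 match each to CATTCC. The Foxo6os window held no match to any of the motifs. Of 32851 upstream windows of this length, 9.99% held AGATAA, 12.6% CATTCC, 12.4% TATAAA, 3.2% the loose MEF2 form and 1.47% the CArG box. A match is a description of the letters and not a binding site.

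The 5 RV libraries had similar depth, inferred from the steps of the low values as 16.68 to 18.16 M fragments at P0 and as 18.09 and 18.68 M at P7. The share of rows listed at 0 was 37.8% to 43.4% at P0, 48.0% in P7 replicate 1 and 40.8% in P7 replicate 2. The mitochondrial row NONMMUT071578 took up 14452, 16783 and 14391 FPKM (fragments per kilobase of transcript and per M fragments) at P0 and 22284 and 19933 FPKM at P7, and it was called higher with a log2 change of 0.47 ± 0.12 (SE). Another mitochondrial row, NONMMUT071594, split the libraries of the series, at 197.8 FPKM in P0 replicate 3 against 10.7 to 24.1 FPKM in the other 4 RV libraries of the comparison. The part of these differences in the results was not tested beyond the alternative fits given with the results.

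Of 11079 rows tested, 615 (5.55%) changed between P0 and P7 in the RV, 203 (1.83%) higher and 412 (3.72%) lower, by limma with an adjusted p under 0.05. At an unadjusted p under 0.05 there were 2162 rows (19.5%). In all 615 the 2 P7 values lay outside the range of the 3 P0 values. Such a separation was also seen in 34.9% of all rows tested, with both P7 libraries below all P0 libraries in 27.0% and above them in 7.96%. The log2 change of all rows tested had a median of -0.27, and 68.7% of the changes lay below 0. When each library was scaled to the same median, 332 rows were called higher and 224 lower, 556 in all, of which 426 were among the 615. The share of calls in the higher direction was thus 33.0% without and 59.7% with this scaling, and all changes below are unscaled. For bulk tissue, fewer cells of a type and less RNA per cell cannot be told apart.

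The share of rows called grew with the level of the row, from 0.542% in the 2770 rows of lowest mean level to 14.5% in the 2770 of highest. Rows inside coding genes were called in 4.37% of cases, rows that overlapped only noncoding genes in 6.94% and rows with no annotated gene in 6.55%. In coding genes 24.6% of the calls were in the higher direction, against 52.0% in noncoding genes only and 53.1% where no gene is annotated. With median scaling these shares were 56.4%, 70.1% and 72.5%, and without P7 replicate 1 they were 43.5%, 71.0% and 57.7%. The share in coding genes was the lowest of the 3 in each of these fits, and the order of the other two was not stable. The median level of the tested rows was 0.152, 0.174 and 0.298 FPKM in these 3 classes.

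**Figure D1:**
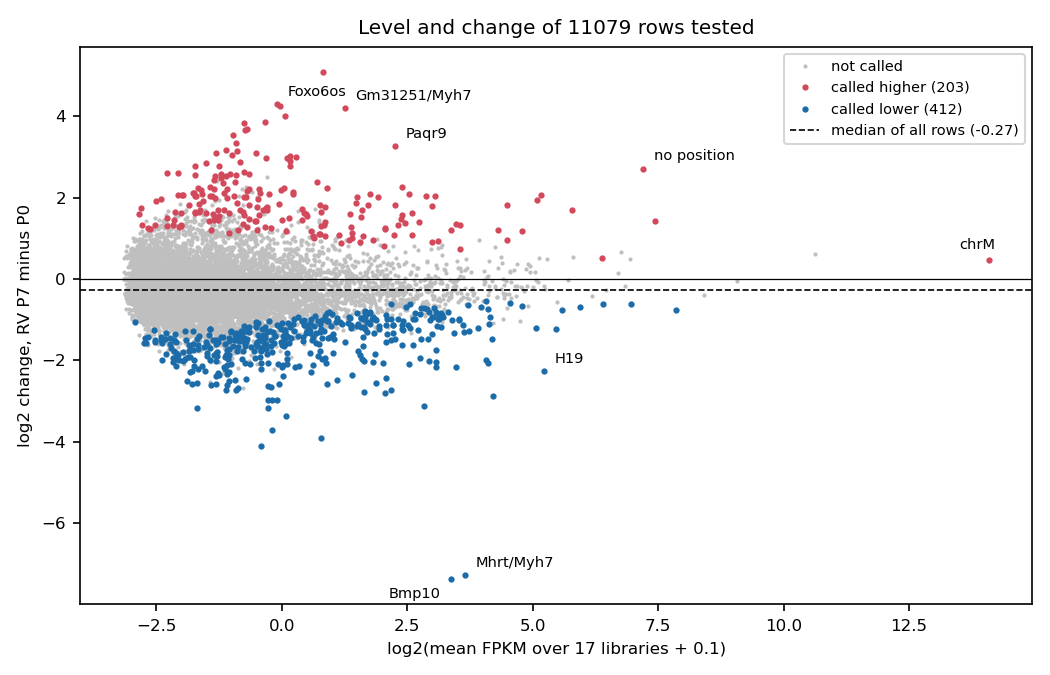
Log2 change of each tested row between RV P0 and P7 (y axis) against the log2 of its mean FPKM over 17 libraries plus 0.1 (x axis); red points are the 203 rows called higher, blue points the 412 called lower and grey points the rest. The 2 lowest rows, at Bmp10 and at the overlap of Myh7 and Mhrt, stand below all others, and the dashed line marks the median of -0.27.

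The contractile locus with the widest changes was Myh7, the slow myosin heavy chain of the fetal ventricle, where all 4 tested rows changed and 3 of the 4 fell. Row NONMMUT020952 (chr14:55590746-55591524) overlaps Myh7 and the antisense gene Mhrt, a noncoding RNA known from the adult mouse heart. It read 18.99, 27.8 and 37.1 FPKM in the P0 libraries and 0 and 0.206 FPKM at P7, a log2 change of -7.27 ± 0.57 (SE; adjusted p = 1.84e-07). The groups did not overlap, and P7 replicate 1 was listed at 0.
Row NONMMUT020956 (chr14:55600011-55600850), inside Myh7 and the antisense gene Gm31251, read 1.60, 4.11 and 3.38 FPKM at P0 and 0.0659 and 0.128 FPKM at P7. Its log2 change was -3.91 ± 0.41 (adjusted p = 8.63e-06). Row TCONS_00018758, 248 bases at chr14:55613573-55613820 near Myh7, read 2.71, 1.69 and 0.889 FPKM at P0 and was listed at 0 in both P7 libraries.
The fourth row rose while it overlaps the second. NONMMUT020955 (chr14:55597685-55610438) spans 12754 bases of Myh7 and Gm31251, and read 0.0222, 0.452 and 0.153 FPKM at P0 and 3.70 and 5.77 FPKM at P7. The log2 change was 4.20 ± 0.49 (adjusted p = 3.67e-05). Mhrt and Gm31251 are annotated on the plus strand and Myh7 on the minus strand, so the rows cannot be assigned to a strand from the files. The fall of NONMMUT020952, below the Myh7/Mhrt row, therefore cannot be assigned to Myh7 or to Mhrt. The calls of all 4 rows held when any 1 P0 library was left out. With any 1 RV library left out, the log2 change was -8.08 to -6.46 for the Myh7/Mhrt row. For the row that rose it was 3.66 to 4.75.

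**Figure D2:**
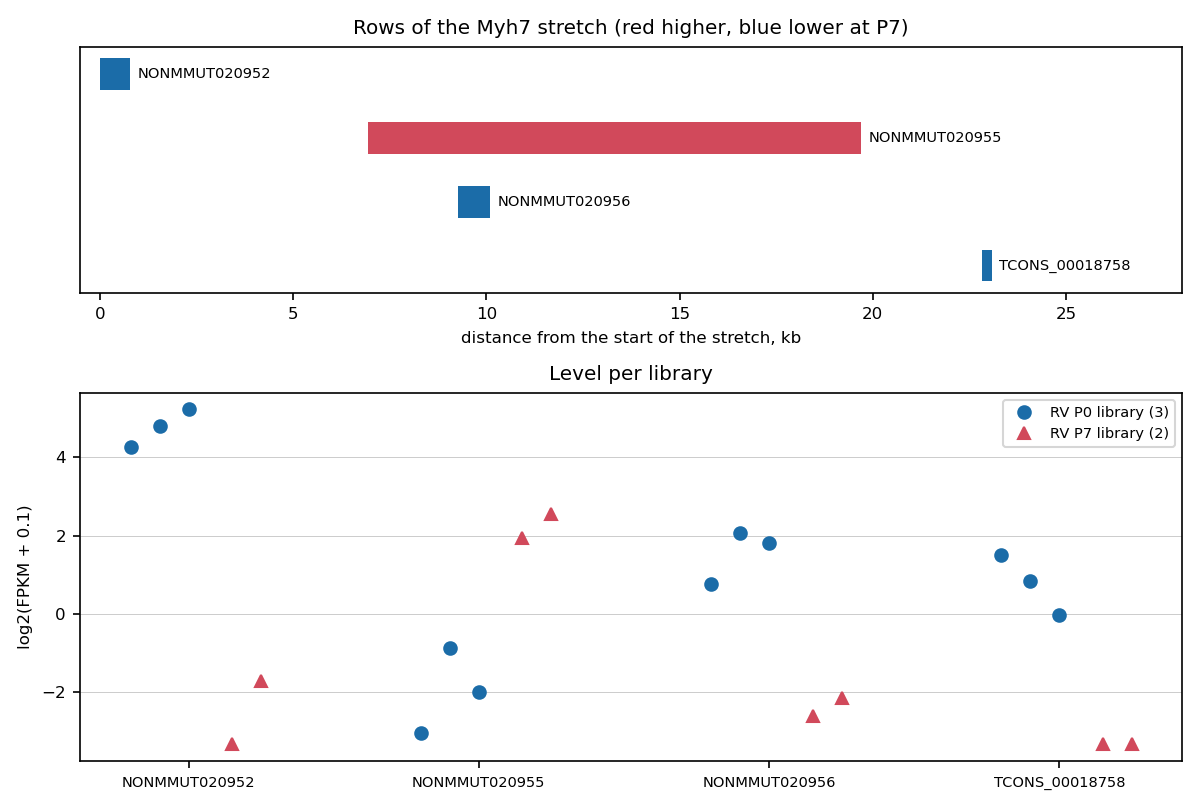
Upper panel, the 4 rows of the Myh7 stretch by distance in kb from its start; lower panel, log2(FPKM + 0.1) of each row in the 3 RV P0 libraries (circles) and the 2 RV P7 libraries (triangles). The long row in red is higher in both P7 libraries and the 3 short rows in blue are lower.

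Of the 21 rows at contractile and sarcomere loci, 1 rose, 5 fell and 15 were not called. The share called was 28.6% against 5.55% of all rows, and the median log2 change was -0.46 against -0.27. Shares for the lists are given as a description, because the share called grew with level and rows at 1 locus can overlap. With median scaling 2 were called higher and 4 lower, and the row gained was TCONS_00045586 near Myl2, with 3.08, 3.98 and 3.56 FPKM at P0 and 5.11 and 7.75 FPKM at P7 (0.82; adjusted p = 0.13 unscaled and 0.0107 scaled). Besides Myh7, the calls were 2 of 4 rows at Sorbs2, an adaptor protein of the Z disc. Row NONMMUT065455 (chr8:46864582-46867670), within Sorbs2 and its antisense gene Sorbs2os, read 1.03, 1.51 and 1.22 FPKM at P0 and 0.206 and 0.225 FPKM at P7. It fell by 2.09 ± 0.39 on the log2 scale (adjusted p = 0.00267), and its call held without any 1 RV library. The second Sorbs2 row, NONMMUT065456, had an adjusted p of 0.0424, which was 0.0564 with median scaling, 0.46 without P7 replicate 1, 0.114 without P0 replicate 1 and 0.121 without P0 replicate 3. Rows at Ttn (titin), Myom1 and Myom2 (M-band proteins) and Myl2 (the ventricular myosin light chain) were not called without that scaling. The Myl2 row TCONS_00045588 read 14.0, 14.3 and 12.3 FPKM at P0 and 13.6 and 19.2 FPKM at P7.

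At calcium handling, ion channel and conduction loci, 0 of 57 rows rose, 9 fell and 48 were not called. That was 15.8% called against 5.55% of all rows, with a median log2 change of -0.67. With median scaling 5 of these rows were called lower. Of the 9, 7 were among the 21 rows at Slc8a1, the sodium-calcium exchanger that extrudes calcium from heart muscle cells. The Slc8a1 row with the highest level among those called, NONMMUT030797 (chr17:81869707-81872038), read 1.78, 4.45 and 4.10 FPKM at P0 and 0.972 and 1.30 FPKM at P7, and fell by 1.43 ± 0.35 (adjusted p = 0.0193). All 7 changes lay between -1.82 and -0.90, and their calls were marginal. None of the 7 kept an adjusted p under 0.05 without P7 replicate 1 (0.112 to 0.224), without P7 replicate 2 (0.0508 to 0.229) or without P0 replicate 3 (0.0589 to 0.131). Without P0 replicate 1 or P0 replicate 2, 2 and 4 of the 7 were lost.
The other calls were at Casq2 (TCONS_00037844, a row near the gene for the calcium buffer of the sarcoplasmic reticulum) and Tbx5 (TCONS_00047451, near the gene of a conduction and chamber transcription factor). The Casq2 row read 2.21, 1.71 and 1.70 FPKM at P0 and 0.736 and 0.733 FPKM at P7, with an adjusted p of 0.0123 that was 0.106 without P7 replicate 1, 0.066 without P7 replicate 2 and 0.0526 without P0 replicate 1. The Tbx5 row read 0.416, 0.371 and 0.341 FPKM at P0 and 0 and 0.133 FPKM at P7, and its adjusted p of 0.0439 went to 0.0932 with median scaling, to 0.492 without P7 replicate 1, and to 0.11, 0.0835 and 0.0843 without P0 replicates 1, 2 and 3. At Cacna1c, the L-type calcium channel, 8 rows were tested and none was called, and NONMMUT058585 read 11.3, 10.6 and 13.7 FPKM at P0 and 9.11 and 11.3 FPKM at P7. Rows at Ryr2, Atp2a2, Pln, Hcn4 and Gja1 were not called either.

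One of the 2 largest falls in the RV, with the Myh7/Mhrt row, was at Bmp10. This growth factor of the bone morphogenetic protein family drives the trabeculae of the fetal ventricle and is restricted later to the right atrium. Row TCONS_00049214, 364 bases within the gene (chr6:87387308-87387671), read 27.6, 17.2 and 36.4 FPKM at P0 and 0 and 0.147 FPKM at P7. Both P7 libraries were far below every P0 library, and the log2 change was -7.37 ± 0.39 (adjusted p = 1.01e-09). The change ranged from -8.02 to -6.71 when any 1 RV library was left out. Where a group is at or near 0 the size depends on the pseudocount of 0.1. With pseudocounts of 1 and 0.01 the change was -4.65 and -9.35 at Bmp10 and -4.67 and -9.18 at the Myh7/Mhrt row. At Foxo6os it was 1.64 and 6.88, and all 3 rows were called. None of the 4 atrial loci on the list had a row that was tested, so the part of atrial tissue in the P0 libraries was not tested. Of the other 3 rows at hormone and growth factor loci, at Igf2 and near Nrg1, none was called.

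At loci of cardiac transcription factors, 4 of 32 rows rose, 6 fell and 22 were not called. The share called was 31.2% against 5.55% of all rows, with a median change of -0.32. The row that rose most, NONMMUT049230 (chr4:119963955-119976497), matched the span of Foxo6os, an antisense gene beside the forkhead factor Foxo6. It was listed at 0 in 2 P0 libraries and read 0.0523 FPKM in the third, against 2.42 and 1.93 FPKM at P7, with a log2 change of 4.30 ± 0.33 (adjusted p = 1.76e-07). The other 3 that rose were at Klf9, a Krüppel-like factor induced by glucocorticoid and thyroid hormone, where 3 of 4 rows were called. Row TCONS_00030581 (chr19:23212270-23213530), near Klf9, went from 0.222, 0.381 and 0.328 FPKM at P0 to 1.89 and 1.40 FPKM at P7, with a log2 change of 2.09 ± 0.36 (adjusted p = 0.00118). The row inside the gene, NONMMUT034211, read 2.97, 9.62 and 6.03 FPKM at P0 and 14.8 and 13.6 FPKM at P7. Its adjusted p of 0.0211 was 0.189 without P7 replicate 1, 0.081 without P7 replicate 2 and 0.0753 without P0 replicate 1, and that of the third row, TCONS_00030582, was 0.00349 and went to 0.0734 without P7 replicate 1.
Near the gene of Hand2, a transcription factor of right ventricular development, 4 of 8 rows fell, and none of the 8 overlaps the gene itself. Row NONMMUT065691 (chr8:59783087-59799638), in the neighbouring gene Hand2os1, read 8.07, 9.00 and 9.96 FPKM at P0 and 2.47 and 4.06 FPKM at P7, and fell by 1.47 ± 0.26 (adjusted p = 0.0018). Row TCONS_00058571 over almost the same span read 10.3, 7.56 and 8.99 FPKM at P0 and 4.78 and 4.82 FPKM at P7. All 4 calls were lost without P7 replicate 1 (adjusted p from 0.0688 to 0.326), 2 were lost without P0 replicate 1 or P0 replicate 3, and 1 without P0 replicate 2 or P7 replicate 2. With median scaling 2 of the 4 were called, and TCONS_00058571 was not (-0.60; adjusted p = 0.078).
A row near Nkx2-5, the early cardiac homeobox factor, read 11.9, 9.15 and 11.1 FPKM at P0 and 5.96 and 6.16 FPKM at P7 (TCONS_00026073, chr17:26965825-26972607). It fell by 0.80 ± 0.17 (adjusted p = 0.00849, and 0.1 without P7 replicate 1), but was not called with median scaling (-0.53; adjusted p = 0.0621). A row near Klf15, a regulator of cardiac metabolism, read 1.05, 1.24 and 1.09 FPKM at P0 and 0.280 and 0.318 FPKM at P7 (TCONS_00049280) and fell by 1.62 ± 0.26 (adjusted p = 0.000776). None of the 8 rows at Mef2a was called, and NONMMUT061937 stayed between 67.6 and 96.1 FPKM in the 5 libraries.

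Of 13 rows at energy metabolism loci, 2 rose and none fell (15.4% called against 5.55% of all rows), and the list's median was 0.04. Both were near genes of carnitine palmitoyltransferase, the enzyme that takes fatty acids into mitochondria. Near Cpt1a, NONMMUT033416 (chr19:3386211-3387996) read 6.30, 6.58 and 9.07 FPKM at P0 and 11.97 and 12.04 FPKM at P7, a change of 0.73 ± 0.16 (adjusted p = 0.00837). Near Cpt1b, the muscle form, TCONS_00020298 read 0.355, 0.138 and 0.540 FPKM at P0 and 0.860 and 1.48 FPKM at P7 (1.58 ± 0.42; adjusted p = 0.0301). Neither call held without P7 replicate 1 (adjusted p = 0.0873 and 0.0787) or without P7 replicate 2 (0.0537 and 0.224), and the Cpt1b call was also lost without P0 replicate 1 (0.0584) or P0 replicate 2 (0.112).
Rows at 3 genes of enzymes of glycolysis that are on no list were picked after their values were seen, and the rows of that pathway were not counted. The listed glycolysis loci Hk1 and Hk2 (hexokinases) had 1 row each, neither called, with log2 changes of 0.04 and 0.38. Rows fell at Pfkp (phosphofructokinase), where both rows were called and NONMMUT016267 read 6.08, 7.77 and 9.85 FPKM at P0 and 0.493 and 2.25 FPKM at P7 (-2.73 ± 0.52; adjusted p = 0.00321). They also fell at Gapdh, where TCONS_00051427 read 5.66, 5.15 and 7.04 FPKM at P0 and 0.876 and 2.78 FPKM at P7 (adjusted p = 0.0361). At Eno1, enolase, NONMMUT050700 read 11.9, 13.0 and 13.4 FPKM at P0 and 5.42 and 5.63 FPKM at P7 (adjusted p = 0.00923). Alternative fits of single rows were made for the 30 rows of largest change and the called rows at listed loci, and not for others.

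Imprinted loci hold genes expressed from 1 parental allele, many of which act in fetal growth. Of 28 rows, 0 rose, 4 fell and 24 were not called (14.3% called against 5.55% of all rows), with a median of -0.82. H19, the maternally expressed RNA that carries miR-675, was the most abundant of them. Row NONMMUT064276 (chr7:149761434-149764051) read 92.4, 46.7 and 58.9 FPKM at P0 and 12.1 and 14.2 FPKM at P7. It fell by 2.26 ± 0.23 (adjusted p = 7.14e-06), and by 1.99 to 2.48 when any 1 RV library was left out. Both rows at Grb10, an adaptor that restrains growth signalling, fell: NONMMUT008609 (chr11:11859615-11863548) read 4.42, 4.45 and 4.97 FPKM at P0 and 0.760 and 1.48 FPKM at P7 (-2.01 ± 0.33; adjusted p = 0.000913). Its adjusted p was 0.0526 without P7 replicate 1, and that of the other Grb10 row, NONMMUT008606, went from 0.0175 to 0.29 without P7 replicate 1 and to 0.0576 without P0 replicate 1. At Gnas, the stimulatory G protein, 1 of 8 rows fell (TCONS_00033850, adjusted p = 0.00246, and 0.0574 without P7 replicate 1). None of the 13 rows at Meg3, Rian and Mirg was called.
A stretch on chromosome 17 (chr17:12934177-13053048) held 7 called rows of 17 tested, all 7 lower, and the 7 lie at 5 positions. The row NONMMUT028255 read 22.3, 27.1 and 30.0 FPKM at P0 and 6.99 and 12.7 FPKM at P7 (-1.47; adjusted p = 0.000422). The stretch was not placed, because the matched rows on either side lie 2939649 bases apart in the files and 2995508 in the annotation. The 74 annotated genes between them include the imprinted pair Airn and Igf2r. The longest rows of the stretch span 118872 bases and the longest Airn transcript 118826, but the rows were not tied to either gene.

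Of 69 rows at loci of known noncoding RNAs, 5 rose and 3 fell (11.6% called against 5.55% of all rows). The median was -0.40, and both counts include rows described at Myh7, Foxo6os and H19. At Lncpint, a long noncoding RNA tied to p53, 3 of 4 rows rose from at or near 0, and these 3 share 1 position. Row NONMMUT056184 read 0, 0.0628 and 0.0577 FPKM at P0 and 0.405 and 0.560 FPKM at P7 (adjusted p = 0.0285). All 3 Lncpint calls were lost without P7 replicate 1 (adjusted p from 0.134 to 0.194), 2 without P7 replicate 2, and 1 each without P0 replicate 1 and P0 replicate 3. Rows at Bvht and Carmn, Tug1, Malat1, Gas5 and the Snhg genes were not called. For example, TCONS_00028783 at Bvht and Carmn read 1.33, 2.44 and 2.24 FPKM at P0 and 1.02 and 1.66 FPKM at P7.

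Of 146 tested rows that cover a microRNA hairpin, 7 (4.79%) were called, 1 higher and 6 lower, against 5.55% of all rows. They include the H19 row. Row NONMMUT011372 (chr11:87569079-87570772) matched Mir142hg, the host transcript of miR-142, a microRNA of blood cells. It was listed at 0 in 2 P0 libraries and read 0.0745 FPKM in the third, against 0.748 and 1.16 FPKM at P7 (3.10 ± 0.76; adjusted p = 0.0194). The call was lost without P7 replicate 1 (adjusted p = 0.103), P7 replicate 2 (0.123), P0 replicate 1 (0.063) or P0 replicate 2 (0.054), and also with a pseudocount of 0.01 (0.0728) or no filter on low values (0.0583). At Mir670hg, NONMMUT038691.1 read 3.43, 1.37 and 3.03 FPKM at P0 and 0.380 and 0.276 FPKM at P7 (-2.58; adjusted p = 0.00203). The row in C430049B03Rik over the hairpins of miR-322, miR-503 and miR-351 fell from 0.310, 0.294 and 0.496 FPKM to 0.0524 and 0.0508 FPKM (TCONS_00064718, adjusted p = 0.00983). In Ska2, NONMMUT011330, which covers miR-301a, fell from 7.47, 5.74 and 6.77 FPKM to 2.72 and 2.76 FPKM (adjusted p = 0.000536).

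At cell cycle loci 0 of 25 rows rose, 3 fell and 22 were not called, where 5.55% of all rows tested were called. The median log2 change was -0.44 against -0.27 for all rows tested. With median scaling 1 was called higher and 1 lower, with a median of -0.17. Within Ccnd2, the gene of cyclin D2, NONMMUT058932 (chr6:127075184-127076427) read 54.2, 50.4 and 63.1 FPKM at P0 and 32.0 and 33.8 FPKM at P7 and fell by 0.76 ± 0.14 (adjusted p = 0.00291, and 0.0627 without P7 replicate 1). Its LV change was -0.16. The difference between ventricles had an unadjusted p of 0.00558 by limma and was not called after adjustment. The row in Cdk1, the mitotic kinase, read 1.04, 0.817 and 0.600 FPKM at P0 and 0.376 and 0.194 FPKM at P7 (NONMMUT006079, adjusted p = 0.0271). A Meis2 row, NONMMUT039217, read 9.48, 5.65 and 5.19 FPKM at P0 and 2.92 and 2.94 FPKM at P7 (adjusted p = 0.0416). The Cdk1 and Meis2 calls were lost without P0 replicate 1 (adjusted p = 0.103 and 0.165), P0 replicate 2 (0.0608 and 0.0535) or P7 replicate 2 (0.224 and 0.142), the Meis2 call also without P7 replicate 1 (0.238), and both with median scaling (0.128 and 0.194). None of the 7 rows at Meis1, a factor known for cell cycle arrest in heart muscle, was called. The row called higher with median scaling was NONMMUT008703 near Meis1, at 0 in the 3 P0 libraries and at 0.148 and 0.0573 FPKM at P7 (adjusted p = 0.124 without and 0.0359 with scaling).

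Of all rows tested 5.55% were called, and loci that mark other cells of the heart gave only 15 tested rows. So few rows cannot show a share above or below that of all rows. Of the 15, 1 fell and none rose. The 1 was at Alas2, the heme synthesis enzyme of red cells (NONMMUT074315), with 0.485, 0.415 and 0.381 FPKM at P0 and 0.0957 and 0.0927 FPKM at P7 (adjusted p = 0.0369, 0.131 with median scaling and 0.0719 to 0.209 without any 1 RV library). The fibroblast row with the highest level, NONMMUT011619 in the collagen gene Col1a1, read 119, 87.5 and 112 FPKM at P0 and 140 and 156 FPKM at P7, without overlap but with an adjusted p of 0.167. Rows at Pecam1 (endothelium), Ptprc and Cd68 (leukocytes), Wt1 and Upk3b (epicardium) and Sox10 (Schwann cells) were not called, and the Ptprc row was at 0 to 0.112 FPKM in the 5 libraries. The highest epicardial row, NONMMUT054852 in Upk3b, read 11.8, 6.89 and 14.2 FPKM at P0 and 5.58 and 6.16 FPKM at P7 (-0.83; adjusted p = 0.184). With median scaling the Alas2 row was no longer called and the Col1a1 row was called higher (0.76; adjusted p = 0.00651). The part of a change in cell types in the results was not tested.

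**Figure D3:**
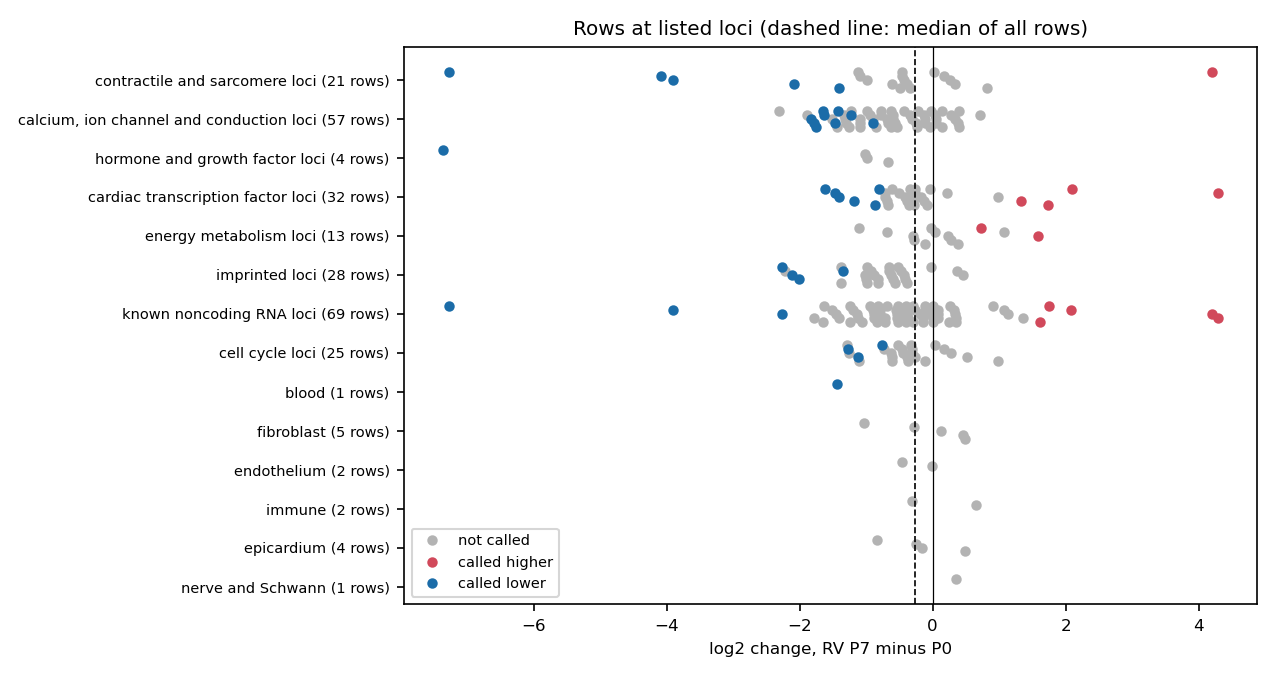
Log2 change between RV P0 and P7 (x axis) of each tested row at the listed loci, with 1 line of points per list and the number of rows in brackets; red marks rows called higher, blue rows called lower and grey the rest, and the dashed line is the median of all rows, -0.27. Called rows lie on both sides of 0 for contractile, transcription factor and noncoding loci, below 0 in the calcium, hormone, imprinted, cell cycle and blood lists, and above 0 in the metabolism list.

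Outside the lists, the row with the largest rise at the pseudocount of 0.1 was TCONS_00062832, 256 bases at chr9:108838073-108838328. It was listed at 0 in 2 P0 libraries and read 0.215 FPKM in the third, and read 5.51 and 4.29 FPKM at P7 (5.08 ± 0.66; adjusted p = 9.23e-05). With a pseudocount of 0.01 its change was 7.43, below the 7.50 of TCONS_00038901, which was at 0 in all P0 libraries. It was not placed, and the matched rows around it flank 14 coding genes, among them Uqcrc1, a subunit of respiratory complex III. Row NONMMUT070487 (chr9:95464523-95468440), within Paqr9, a membrane receptor of the progestin and adipoQ family, read 0.548, 0.979 and 0.649 FPKM at P0 and 8.65 and 6.77 FPKM at P7 (3.27 ± 0.25; adjusted p = 1.76e-07). Both tested rows at Klhl33, a kelch-like gene, rose, and NONMMUT020733 went from 0, 0.0474 and 0 FPKM to 1.62 and 1.13 FPKM. Besides the row in Gm31251 and Myh7, 5 of the 15 rows that rose most lie in noncoding genes known by a Gm or clone name: TCONS_00038901 (Gm37279, which here overlaps the predicted coding gene Gm34302), TCONS_00014813 (Gm33424), TCONS_00037389 (Gm36981), TCONS_00037220 (Gm40055) and NONMMUT029111 (AC138228.2). Their P0 levels did not exceed 0.180 FPKM and their P7 levels lay between 0.706 and 2.73 FPKM. The call at Gm36981 was lost without P7 replicate 2 (adjusted p = 0.0805). The others of the 15 that rose were NONMMUT058728 near Mfap5, TCONS_00021476, and NONMMUT071935 and NONMMUT042397 without a position.
Among the 15 rows that fell most, NONMMUT027837 (chr16:94943501-94975045) matched Gm41505, antisense to the potassium channel gene Kcnj6. It read 2.49, 2.52 and 2.61 FPKM at P0 and 0.138 and 0.178 FPKM at P7 (-3.36 ± 0.48; adjusted p = 0.000217). TCONS_00055858, near Ears2, read 7.80, 6.70 and 5.75 FPKM at P0 and 0.753 and 1.002 FPKM at P7 (-2.81 ± 0.25; adjusted p = 1.06e-06). Row NONMMUT011874, without a position, read 34.9, 22.7 and 24.8 FPKM at P0 and 4.61 and 2.84 FPKM at P7. The others were TCONS_00059174 near Cdh3, TCONS_00013953 near Eml5, the second Pfkp row NONMMUT016268, NONMMUT028308.1 and NONMMUT022806 (both not placed), and NONMMUT048680, NONMMUT046897 and NONMMUT035245 without a position. The calls of NONMMUT016268 and NONMMUT046897 were lost without P7 replicate 1 (adjusted p = 0.107 and 0.359), and that of NONMMUT046897 also without P0 replicate 3 (0.0504).

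**Figure D4:**
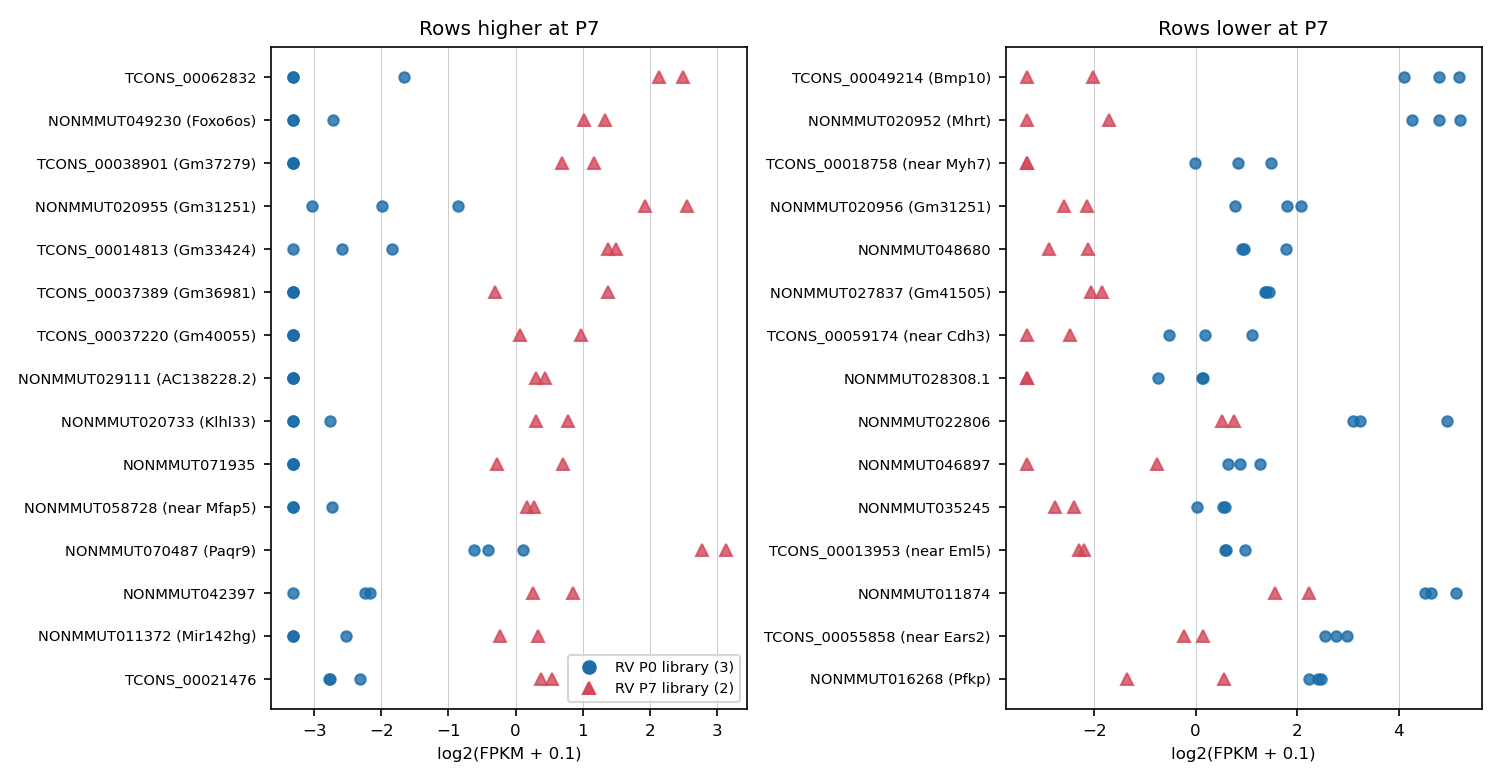
Log2(FPKM + 0.1) of the 15 rows that rose most (left) and the 15 that fell most (right) in the 3 RV P0 libraries (blue circles) and the 2 RV P7 libraries (red triangles), with the gene a row overlaps or lies near. In every row the triangles lie outside the range of the circles, and points at the left edge are values listed at 0.

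Abundant rows also changed. NONMMUT062940, without a position, read 49.1, 35.9 and 39.6 FPKM at P0 and 316 and 231 FPKM at P7, a log2 change of 2.71 ± 0.18 (adjusted p = 2.43e-08). On chromosome 16, TCONS_00024059 (chr16:90341906-90350117) in Gm49708 and Gm49709 read 79.3, 71.3 and 88.1 FPKM at P0 and 217 and 207 FPKM at P7 (1.42 ± 0.10; adjusted p = 6.22e-08), and a shorter row within it, NONMMUT027626, rose as well. A row in Ankrd23, a titin-binding ankyrin repeat protein of muscle, read 9.38, 20.1 and 13.4 FPKM at P0 and 41.5 and 67.2 FPKM at P7 (NONMMUT000571, 1.95 ± 0.29; adjusted p = 0.000396). In the direction of a fall, NONMMUT061045 in 5430431A17Rik read 32.6, 22.8 and 32.2 FPKM at P0 and 4.18 and 11.2 FPKM at P7, and all 3 tested rows of that gene fell. Rows in Mrpl42 (mitochondrial ribosome) and Ndufab1 (respiratory complex I) fell by 0.61 ± 0.13 and 0.70 ± 0.16.
A further 2 rows were chosen after their values were seen, for the heart functions of the genes whose spans they matched. The row at Hey2, a Notch target of the ventricular compact wall, read 0.572, 0.789 and 0.575 FPKM at P0 and 0.0125 and 0.0486 FPKM at P7 (NONMMUT005166, -2.51 ± 0.36; adjusted p = 0.000216). At Vgll4, a cofactor of the Hippo pathway, NONMMUT058473 read 1.14, 0.884 and 0.953 FPKM at P0 and 0.220 and 0.456 FPKM at P7 (adjusted p = 0.0416).

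Of the 551 called rows with a position, 105 sat in 43 stretches with at least 2 called positions no more than 50 kb apart, and 4 of the 43 held both directions, Myh7 among them. The stretch at Lncpint on chromosome 6 (chr6:31169939-31292095) held 6 called rows of 7 tested, all higher, and the 6 lie at 4 positions. Each stretch, also that on chromosome 17, ran from its first to its last called row, and rows beyond it were not counted. Within such bounds all tested rows were called at Klf9 (3 of 3), Rpl12 (3 of 3) and 5430431A17Rik (4 of 4). Of all tested rows at or near Klf9, 3 of 4 were called. Overlapping rows share reads and are not independent.

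In the unscaled values, rows that rose had covered more of their change by P3 than rows that fell. The median share of the P0 to P7 change reached at P3 was 71.0% over the 203 and 47.3% over the 412. The RV at P3 was past 50% of the change in 146 of the 203 and in 189 of the 412. These shares use the P0 and P7 values that made the calls and are given as a description. They also carry the shift of whole libraries, and shares with median scaling were not computed. The RV library medians of log2(FPKM + 0.1) were -1.81 to -1.75 at P0, -1.96 to -1.69 at P3, and -2.19 and -1.91 at P7. At Paqr9 the P3 libraries read 5.34 to 7.18 FPKM, close to P7, and at Foxo6os 0.484 to 0.593 FPKM. At Bmp10 they read 2.26 to 3.71 FPKM and at the Myh7/Mhrt row 1.30 to 5.30 FPKM.
The LV changed alongside, with 1245 rows called between P0 and P7 (11.2%), 2.6% of the rows tested in the higher and 8.64% in the lower direction. At Bmp10 the LV change was -8.04 against -7.37 in the RV, and at the Myh7/Mhrt row -6.84 against -7.27. At Foxo6os it was 4.46 against 4.30 and at H19 -2.70 against -2.26. The sign of the LV change equalled that of the RV in 201 of the 203 rows that rose and in 400 of the 412 that fell. The same share over all rows tested was not computed, and 68.7% of all RV changes lay below 0. The test of the difference between the RV and LV changes called 0 rows with limma (smallest adjusted p = 0.339), with 454 rows (4.1%) at an unadjusted p under 0.05. No row is therefore shown to change differently in the RV, and a p above the threshold does not show that the ventricles changed alike. The smallest p of the rows described belonged to NONMMUT011874 (unadjusted p = 9.17e-05), which fell by 2.87 in the RV and by 4.60 in the LV.

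**Figure D5:**
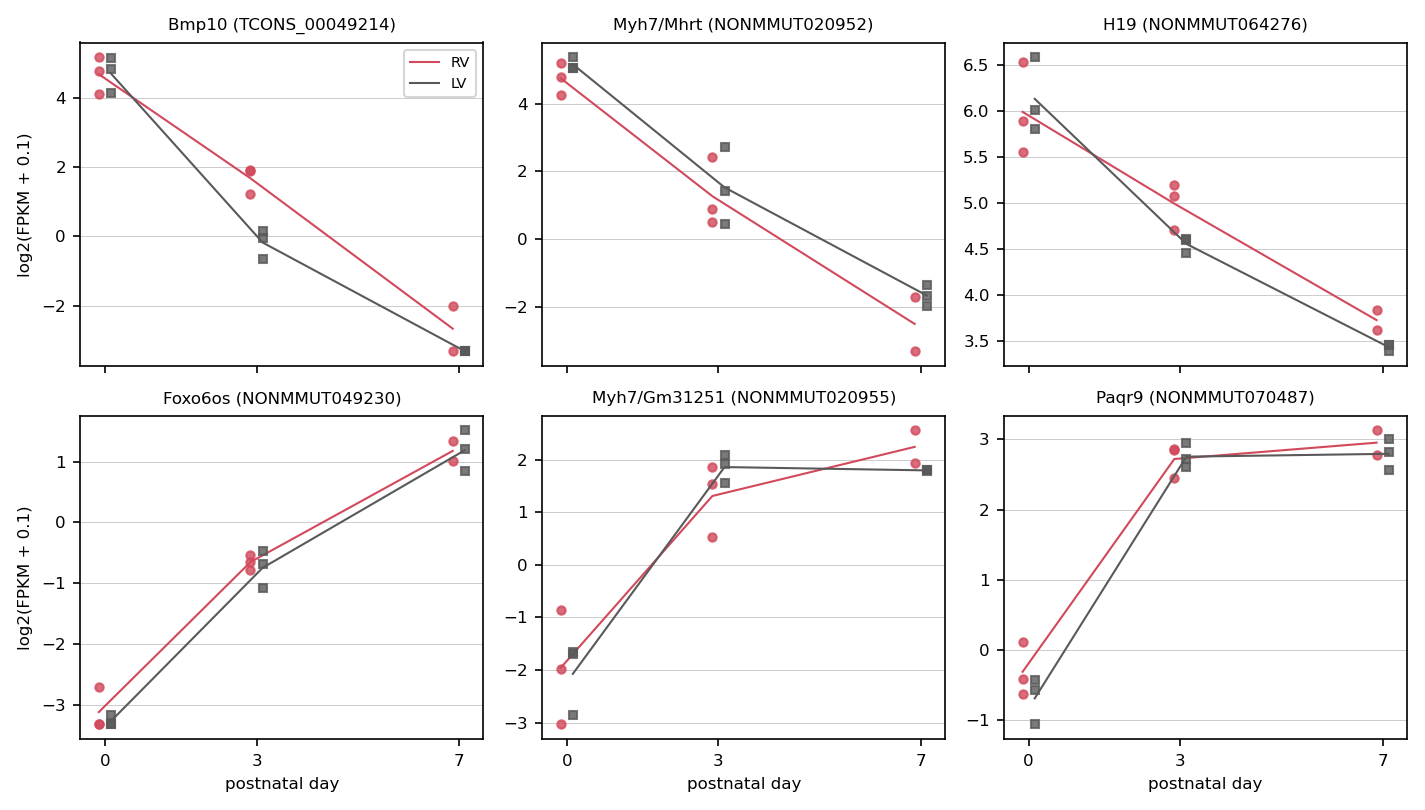
Log2(FPKM + 0.1) at postnatal days 0, 3 and 7 for 6 rows, with 1 point per library and lines through the group means, RV in red and LV in grey. Bmp10, the Myh7/Mhrt row and H19 fall at both steps in both ventricles, while Paqr9 is near its P7 level by day 3.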

How the data were processed

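Each library had 1 table with an identifier, a position and a value. The submitters' processing notes name STAR 2.4.0j and mm10, but the positions are those of mm9. Annotation, counting tool and use of strand were not given in the sources used here. Deposited values were read as FPKM from the spacing of low values, on which 79.0% to 82.9% of low values fell, and depth (13.8 to 20.55 M fragments) was inferred from it. Differences were tested with limma 3.58.1 (R 4.3.3) on log2(FPKM + 0.1), fitting the 6 group means to all 17 libraries, with a variance trend and robust moderation, two-sided with Benjamini-Hochberg adjustment. Rows with at least 0.1 FPKM in 2 libraries were tested. Named were up to 15 rows per direction with the largest change, a level above the median (0.183 FPKM) and no overlap, plus at each listed locus the 3 highest and all called rows; exceptions are stated. Rows, lists and members were chosen with earlier results of these data known. Rows that share an ID carry a numbered suffix. P-values reflect the spread between replicates only. The main RV fit was run on simulated counts with changes added only to rows at or above the median level. The difference between ventricles and the alternative fits were not run on them.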

Additional observations from a re-analysis of the deposited data

How the results depend on the processing

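The count of 615 rows stayed within 1.5 times under pseudocounts of 1 and 0.01, a filter at 0.5 FPKM, median scaling, no variance trend, sums per position, the library set as a term and the fit without RV P3 replicate 2. It was 380 with no filter on low values, 281 when only the 5 RV libraries were fitted and 370 in the 11 libraries with low NONMMUT071594, a choice made after seeing the data, as were the other set alternatives. Leaving out 1 of the 5 libraries gave 180 to 514, the lowest without RV P7 replicate 1 (90 higher and 90 lower). With the replicate block the RV fit called 0 rows by limma (1188 at an unadjusted p under 0.05), with a smallest adjusted p of 0.463. The median change of all rows tested was -0.26 in that fit against -0.27 in the main fit. The block fit rests on 2 same-numbered pairs, because P0 replicate 3 has no P7 partner. With so few pairs it cannot decide whether the calls hold under pairing. Whether the numbers pair the samples was not settled. The 2 same-numbered RV pairs of P0 and P7 correlated at 0.01 each. The 5 same-numbered pairs of RV and LV libraries correlated at 0.07 to 0.11, and pairs with different numbers were not computed. Row NONMMUT071594 split both ventricles by the same numbers at P0 and P3. At P0 the RV read 10.7, 11.3 and 197.8 FPKM and the LV 23.9, 19.9 and 246.9 FPKM. At P3 the RV read 131.5, 7.93 and 139.7 FPKM and the LV 161.8, 25.8 and 157.1 FPKM. For the difference between ventricles 1 row was called with no filter, 1 with only P0 and P7 libraries and 1 with the replicate block (3 different rows), and 0 under the others. Of the 30 rows named for their change, 26 kept their call under every alternative but the replicate block, against 4 of 33 other called locus rows, and no named row reversed. The 30 were picked in these same libraries for large changes without overlap and the 33 were not, so the selection itself favours the 30. Of those 33, 28 lost the call without RV P7 replicate 1 and 11 with median scaling. The number of P7 libraries (2) and levels under 1 FPKM limit what could be called.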
